A study of Spodoptera frugiperda with 18 samples.

Results

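miR-252 and miR-307 are 2 conserved microRNAs that were more abundant in pupae than in larvae of Spodoptera frugiperda, the fall armyworm, a moth that is a crop pest as a caterpillar. They are listed as 4 rows, miR-252-x, sfr-miR-307-3p, miR-307-y and miR-307-z, out of 741 rows deposited and 660 once identical sequences with identical counts had been merged. The 4 rows were chosen by name from their levels across all 18 libraries, so their higher level in pupae is described here and not tested. Small RNA was sequenced once from 1 egg sample, 6 larvae (instars 1 to 6), 1 prepupa, female and male pupae of days 1, 4 and 7 (6 libraries) and female and male adults of days 1 and 4 (4 libraries). No treatment or genotype separates the groups, and neither the strain nor the number of animals per library is stated in the labels.

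MicroRNAs are cut from the arms of RNA hairpins and guide Argonaute proteins to messenger RNAs, mainly through the seed, bases 2 to 8 of the microRNA, so a change at the 3′ end leaves the seed as it is. In insects the steroid hormone ecdysone times the moults and metamorphosis, and a set of microRNAs changes with its pulses. In Drosophila, miR-252 responds to ecdysone and holds back the cell cycle through Abi, an actin regulator. miR-307 is conserved among insects and shares its seed with miR-67 of nematodes.

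The sequences show that the 4 rows stand for 2 microRNAs. Each is printed 5′ to 3′ as deposited, in DNA letters, with the seed in capitals.
miR-252-x: cTAAGTACtagtgccgcaggag
sfr-miR-307-3p: tCACAACCtccttgagtgagc
miR-307-y: tCACAACCtccttgagtgagcgt
miR-307-z: tCACAACCtccttgagtgagcgact
The 3 miR-307 rows share 1 seed, and their first 21 bases are the whole of sfr-miR-307-3p. miR-307-y is longer than it by 2 bases and miR-307-z by 4 bases at the 3′ end. Counted from 1 at the 5′ end, the one difference of miR-307-z from miR-307-y within their shared length is T23A. Each miR-307 row is thus a near copy of the other 2, and how reads were divided among them was set by the authors' counting, so their sum was followed as well. miR-252-x had no near copy among the 660 rows, where a near copy has up to 2 differences in an alignment of 18 bases or more.

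No other row was named for miR-252, miR-307 or miR-67, and 1 row shared a seed with a member. It is a predicted miRNA without a family name, shown here because its seed is that of miR-252-x while the rest of it differs.
Predicted miRNA with the miR-252 seed: tTAAGTACgttacgatcggct
This sequence was listed 3 times. It had 5118 CPM in the egg, from 1461 counts, and at most 18.5 CPM in any of the other 17 libraries. CPM are counts divided by the library's own total and multiplied by 1e6. miR-252-x had 7.01 CPM in the egg, from 2 counts, so the 2 sequences with this seed stood highest at different stages.

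Library totals ran from 230451 counts in instar 3 to 4808814 in the prepupa, so 3 counts made 13.0 CPM in instar 3 and 0.624 CPM in the prepupa. All 6 larvae and the male pupae of days 4 and 7 were among the shallow libraries, each with at most 796582 counts. Only counting error enters the intervals and floors given here, and reads that carry no molecular identifier need not be separate molecules. With 1 library per stage, sex and age, libraries of different ages or sexes served as replicates, and spreads and p-values measure the differences between these libraries. In whole animals, fewer cells that make a miRNA and less of it per cell cannot be told apart.

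miR-252-x was low in the egg, present at a moderate level through larval life, and higher from the prepupa on. The egg had 7.01 CPM, with an exact 95% counting interval of 0.848 to 25.3 CPM. The 6 larvae had 126 CPM at the lowest, 206 CPM at the median and 316 CPM at the highest. The prepupa had 920 CPM. The 6 pupae had 417 CPM at the lowest, 698 CPM at the median and 1149 CPM at the highest. Female adults of days 1 and 4 had 521 and 445 CPM, and male adults 436 and 561 CPM. Every pupa and every adult lay above every larva, while pupae and adults overlapped. The row was chosen on these levels, and the share of all rows with such ranges was not counted. The pupal mean of 726 ± 249 CPM (SD, n = 6) was 3.43 times the larval mean of 212 ± 65.4 CPM (SD, n = 6), and the adult mean of 491 ± 60.2 CPM (SD, n = 4) was 2.32 times the larval mean.

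The largest step of miR-252-x between neighbouring stages after hatching was the one into the prepupa, where it stood 3.74 times as high as in instar 6, at 920 CPM against 246 CPM. This compares single libraries and has no replicate check. Within the pupal period the values ran through a maximum at day 4 in both sexes, with 639, 809 and 417 CPM on days 1, 4 and 7 for females and 756, 1149 and 587 CPM for males. Day 7 stood at 0.515 times day 4 in females and at 0.511 times day 4 in males. The prepupa lay inside the pupal range.

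sfr-miR-307-3p, the most abundant form of miR-307, was highest in pupae and lower again in adults. It was listed at 0 in the egg, where a floor of 3 counts is 10.5 CPM and the exact 95% interval reaches 12.9 CPM. The larvae had 17.4 CPM at the lowest, in instar 3 from 4 counts, 85.8 CPM at the median and 135 CPM at the highest, in instar 1. The prepupa had 250.4 CPM. The pupae had 294 CPM at the lowest, 321 CPM at the median and 468 CPM at the highest. Female adults of days 1 and 4 had 129 and 91.0 CPM, and male adults 144 and 175 CPM. Every pupa lay above every adult and every larva, whereas the adults overlapped the upper larvae. Here too the choice used these levels, and the share of all rows with such ranges was not counted. The pupal mean of 349 ± 64.1 CPM (SD, n = 6) was 4.28 times the larval mean of 81.7 ± 45.7 CPM (SD, n = 6), and the adult mean of 135 ± 34.8 CPM (SD, n = 4) was 0.386 times the pupal mean.

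For sfr-miR-307-3p the step into the prepupa was 3.17-fold, 250.4 CPM against 79.1 CPM in instar 6, and both day 1 pupae were higher still. Female pupae of days 1, 4 and 7 had 319, 376 and 323 CPM and male pupae 315, 468 and 294 CPM, with day 4 again the highest in each sex. After eclosion, adult day 1 stood at 0.400 times pupal day 7 in females, 129 CPM against 323 CPM, and at 0.491 times in males, 144 CPM against 294 CPM. Over the same step the female libraries of miR-252-x had 521 CPM on adult day 1 against 417 CPM on pupal day 7, and the male libraries 436 CPM against 587 CPM, so the sexes differed in direction, with female ratios of 1.25 with library totals, 1.01 with TMM factors and 1.06 with DESeq2's size factors.

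miR-307-y, the form longer by 2 bases, was also higher from the prepupa on than in larvae, at a lower level than sfr-miR-307-3p. Its adult mean was 0.673 times its pupal mean, against 0.386 times for sfr-miR-307-3p. It had no counts in the egg or in instar 3 and at most 7.69 CPM in the other larvae, where 14 counts in all were found. The prepupa had 34.1 CPM. The pupae had 21.5 CPM at the lowest, 41.5 CPM at the median and 57.6 CPM at the highest. Female adults of days 1 and 4 had 17.7 and 29.2 CPM, and male adults 26.5 and 37.6 CPM. Pupae and adults overlapped, and their CPM lay above those of all larvae. The exact 95% intervals of the larvae reach up to 27.8 CPM, in instar 4 from 2 counts. They overlap those of the day 7 male pupa (9.82 to 40.8 CPM, 9 counts) and the day 1 female adult (12.5 to 24.4 CPM), so not every library was clearly apart. The pupal mean of 41.3 ± 13.2 CPM (SD, n = 6) was 8.96 times the larval mean of 4.60 ± 2.96 CPM (SD, n = 6), which rests on those 14 counts.

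miR-307-z, the longest form, had 40 counts over all libraries and was at 0 in 9 of them, with at most 3.35 CPM, in the day 4 male adult. It was absent from the 2592312 larval counts, where a floor of 3 counts is 1.16 CPM, while pupae had 17 counts and adults 18, 13 of them in the day 4 male, or 1.30 and 1.82 CPM of their pooled totals. The exact 95% interval of the pooled pupal level, 0.758 to 2.08 CPM, overlaps the larval one, 0 to 1.42 CPM, and so does the adult one, 1.08 to 2.88 CPM. Overlap of intervals is not a test, so whether larvae differ from pupae or adults was left undecided at this depth.

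Of the 296 rows averaging 10 counts or more across larvae and pupae, 22.6% had a pupal mean at least 2 times the larval mean, and so did all 3 members that passed this minimum, which miR-307-z did not. The members were chosen on this contrast, so their place was fixed in advance. miR-307-y also passed the minimum only through pupae, with 555 counts there against 14 in larvae. The log2 ratio was 1.78 for miR-252-x, 2.10 for sfr-miR-307-3p and 3.16 for miR-307-y, against a median of -0.31 over the 296 rows. With TMM scaling factors, which correct for the make-up of each library, the 3 members stood at 2.26, 2.60 and 3.59 in the same order, against a median of 0.22. Depth differed between larvae and pupae, and its part in these ratios was not tested. Of the 344 rows averaging 10 counts or more across pupae and adults, 19.5% had an adult mean at least 2-fold lower than the pupal mean. sfr-miR-307-3p was among them, at a log2 ratio of -1.37, while miR-252-x and miR-307-y, each at -0.57, were not. The choice of members used all 18 libraries, adults among them, so this contrast is not independent of it either. How many of all rows kept the stages apart in range was not counted.

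**Figure D1:**
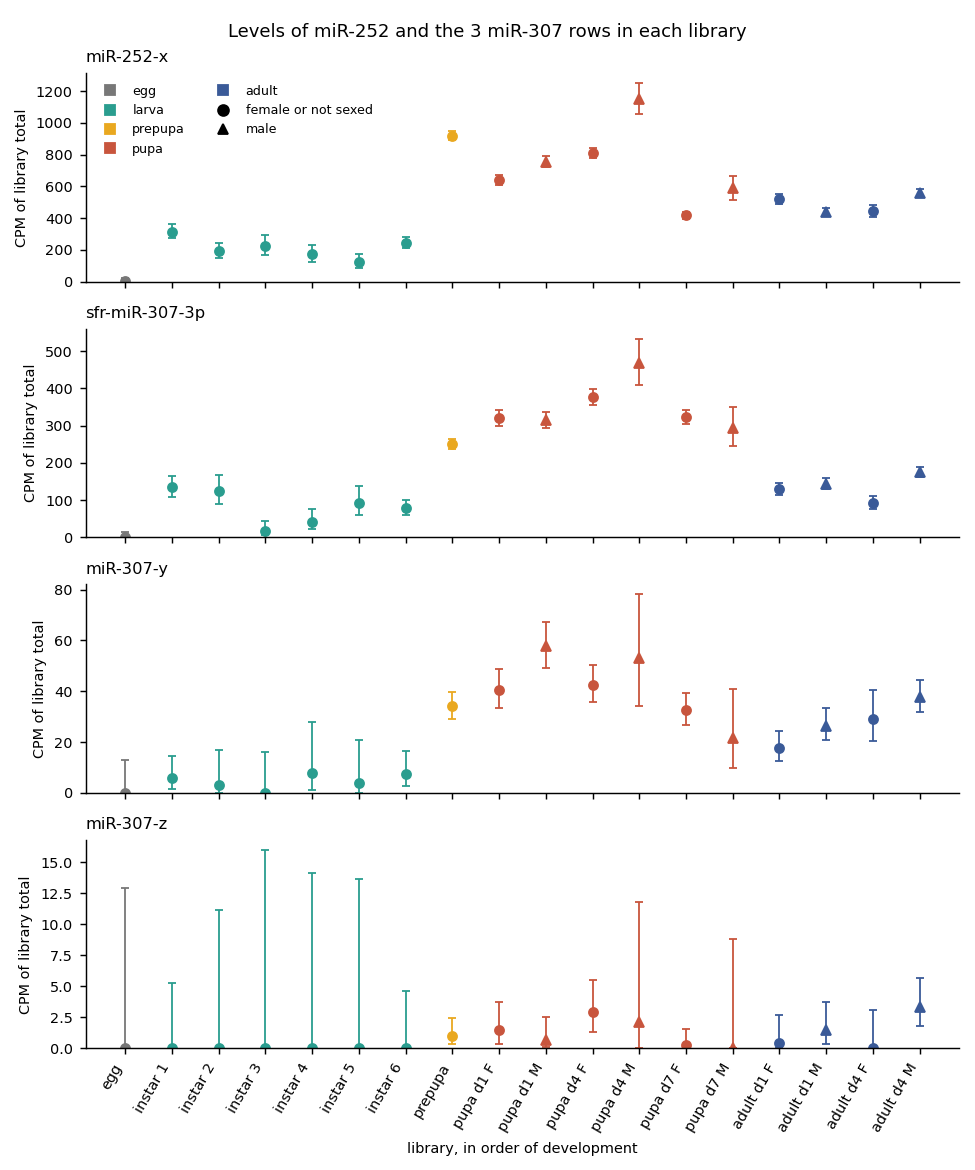
CPM of library total for each member (1 panel each, each axis from 0) in the 18 libraries in order of development; bars are exact 95% counting intervals. miR-252-x has its highest values in the day 4 male pupa (1149 CPM) and the prepupa (920 CPM), sfr-miR-307-3p is higher in all 6 pupae than in all adults and larvae, and miR-307-z stays at or under 3.35 CPM.

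In order of the group means, miR-252-x ran from the prepupa (1 library) through male pupae at 831 ± 288 CPM (SD, n = 3), female pupae at 622 ± 197 CPM (SD, n = 3), male adults at 499 ± 88.0 CPM (SD, n = 2), female adults at 483 ± 53.7 CPM (SD, n = 2) and larvae to the egg. Neighbours overlapped in range down to the female adults, which lay clear of the larvae, as the larvae did of the egg. With TMM factors female pupae came before male pupae, and with DESeq2's size factors male pupae came before the prepupa. For sfr-miR-307-3p the order was male pupae at 359 ± 94.9 CPM (SD, n = 3), female pupae at 340 ± 31.6 CPM (SD, n = 3), prepupa, male adults at 160 ± 21.6 CPM (SD, n = 2), female adults at 110 ± 27.1 CPM (SD, n = 2), larvae and egg. The overlapping neighbours there were male and female pupae, and female adults and larvae. Female pupae came first with TMM factors and with DESeq2's size factors.

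The balance between the 2 microRNAs was not constant. miR-252-x counts were 3.09 ± 0.611 times those of the summed miR-307 rows in adults (SD, n = 4, range 2.53 to 3.70), against 1.82 ± 0.352 times in pupae (SD, n = 6, range 1.17 to 2.20). The adult and pupal ranges do not overlap, and the prepupa, at 3.22, lies with the adults. The day 7 female pupa had the lowest ratio, 1.17, with an exact 95% interval of 1.09 to 1.26 that lies below those of the other 5 pupae. Larvae ran from 1.31 in instar 5 to 12.75 in instar 3, where only 4 miR-307 counts stand behind the ratio. A ratio within a library does not depend on how libraries are scaled, but it is built from the same counts as the levels above and was described after those had been seen.

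The share of the longer forms, miR-307-y and miR-307-z, among all miR-307 counts varied between libraries too, and is likewise a description made after the values were seen. The larvae ran from 0% of 4 counts in instar 3 to 15.4% in instar 4, with a median of 3.94%. The prepupa had 12.3%. In pupae the share lay between 6.82% in the day 7 male and 15.6% in the day 1 male, with a median of 10.7%. Adult females of days 1 and 4 had 12.3% and 24.3%, and adult males 16.2% and 19.0%. Pooled, the 6 larvae had 5.53% of 253 counts (exact 95% interval 3.06% to 9.11%), the 6 pupae 11.5% of 4979 counts (10.6% to 12.4%) and the 4 adults 17.5% of 1758 counts (15.8% to 19.4%). These pooled intervals hold counting error only and not the spread between libraries. They do not overlap, but single libraries of the 3 stages do, and the larval libraries hold from 4 to 99 counts each. Of the 1758 adult counts, 838 came from the day 4 male. The day 4 adult female, with 24.3% (exact 95% interval 17.6% to 32.1%), stood above the day 1 adult female, with 12.3% (8.88% to 16.5%).

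**Figure D2:**
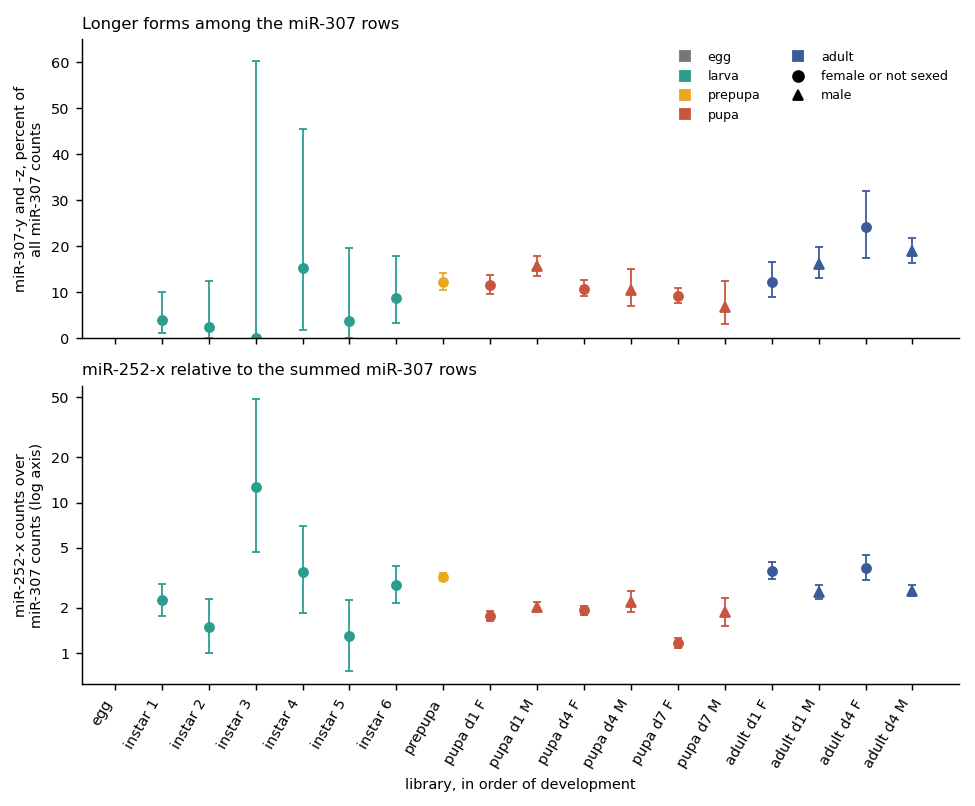
Upper panel: miR-307-y and miR-307-z as a percentage of all miR-307 counts; lower panel: miR-252-x counts over summed miR-307 counts, on a log axis; libraries in order of development, bars are exact 95% intervals, and the egg has no value because it holds no miR-307 count. The share is highest in the day 4 adult female (24.3%), and the ratio lies between 2.53 and 3.70 in adults and between 1.17 and 2.20 in pupae.

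Comparisons within a life stage do not use the contrast on which the members were chosen, and these were tested with edgeR's quasi-likelihood test over all rows with a mean of at least 10 counts. miR-307-z did not reach this minimum in any test, and miR-307-y did not in larvae.

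Females were compared with males at the 5 ages with both sexes, with age as a block. In CPM of library totals, miR-252-x was lower in females at 4 of 5 ages, among them pupal day 4, with 809 CPM in the female and 1149 CPM in the male, and higher at adult day 1, with 521 CPM in the female and 436 CPM in the male. With TMM factors over the 18 libraries it was lower in females at 3 of 5 ages, and pupal day 4 turned round, to 1266 CPM in the female and 1034 CPM in the male. DESeq2's size factors also gave 3 of 5 ages, with pupal day 1 turned round, to 652 CPM in the female and 596 CPM in the male. sfr-miR-307-3p was lower in females at 3 of 5 ages with library totals, and at 2 of 5 with TMM factors, which left the 2 adult ages. Its ratio was furthest from 1 at adult day 4, with 91.0 CPM in the female and 175 CPM in the male. miR-307-y was lower in females at 4 of 5 ages with library totals and at 3 of 5 with TMM factors. None of the 3 passed the test, where 0.581% of 344 rows did, and the fitted female over male log2 changes were -0.04 (SE 0.23) for miR-252-x, -0.02 (SE 0.34) for sfr-miR-307-3p and -0.04 (SE 0.37) for miR-307-y, with edgeR adjusted p of 0.946, 0.981 and 0.958. Over all rows the median was 0.21, and against it the members stood at -0.25, -0.23 and -0.25.

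**Figure D3:**
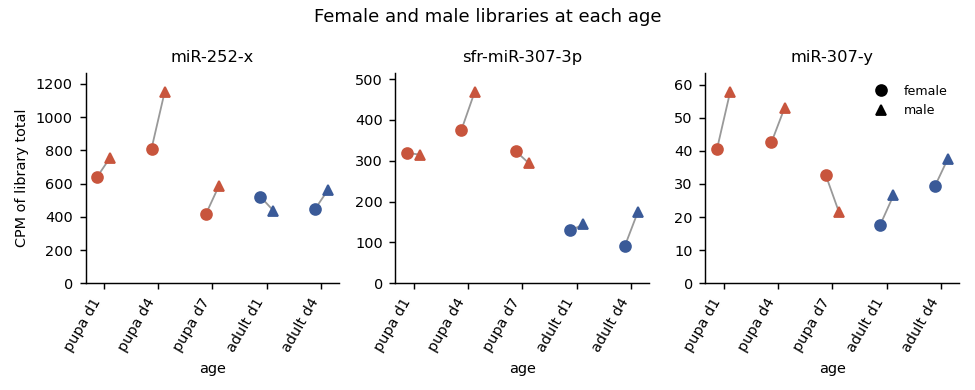
CPM of library total in the female (circle) and male (triangle) library of each age, 1 panel per member, each axis from 0; grey lines join the sexes of an age. The sexes change places between ages in every panel, and at adult day 4 sfr-miR-307-3p has 91.0 CPM in the female and 175 CPM in the male.

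The next test set the sex difference in adults against that in pupae. sfr-miR-307-3p had a log2 difference of -1.20 (SE 0.52), towards males in adults, and miR-307-y one of -1.06 (SE 0.60), against -0.33 (SE 0.46) for miR-252-x. The value of sfr-miR-307-3p ran from -1.77 to -0.39 when 1 library was left out, with -0.39 without the day 4 female adult and -0.45 without the day 4 male adult, and that of miR-307-y from -1.41 to -0.68, with -0.68 without the day 7 female pupa. None passed, with edgeR adjusted p of 0.279 for sfr-miR-307-3p, 0.348 for miR-307-y and 0.664 for miR-252-x, while 3.20% of 344 rows did, 2.62% in the positive direction and 0.581% in the negative. The median over all rows was -0.35 here and moved to 0.36 with library totals. Relative to the median, sfr-miR-307-3p stood at -0.85 with TMM factors and at -0.85 with library totals, and miR-252-x at 0.01 and 0.02, so the value of miR-252-x was close to that of the median row.

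Adult day 4 was compared with day 1, with both sexes as the libraries of a day. miR-252-x had 445 CPM (female) and 561 CPM (male) on day 4, against 521 CPM (female) and 436 CPM (male) on day 1, a log2 change of -0.09 (SE 0.37, edgeR adjusted p = 0.977). sfr-miR-307-3p had a log2 change of -0.16 (SE 0.52, edgeR adjusted p = 0.952), lower on day 4 in the female and higher in the male. miR-307-y, higher on day 4 in both sexes, had a log2 change of 0.44 (SE 0.56, edgeR adjusted p = 0.881). None of the members passed, where 0.291% of 344 rows did.

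In larvae, levels were fitted against instar number. miR-252-x had 316, 190, 221, 173, 126 and 246 CPM in instars 1 to 6, and sfr-miR-307-3p had 135, 124, 17.4, 42.3, 92.5 and 79.1 CPM. Neither ran in one direction. sfr-miR-307-3p was highest in instar 1 under the 3 scalings tried, while miR-252-x was highest in instar 1 with library totals but in instar 6 with TMM factors (277 CPM there, 238 CPM in instar 1) and with DESeq2's size factors. The log2 changes per instar were -0.05 (SE 0.11) for miR-252-x and -0.09 (SE 0.20) for sfr-miR-307-3p, with an edgeR adjusted p of 0.796 for both. Neither passed, while 29.1% of 234 rows did. The same edgeR test of instars 4 to 6 against 1 to 3 called 0 rows, with 75 at an unadjusted p under 0.05.

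**Figure D4:**
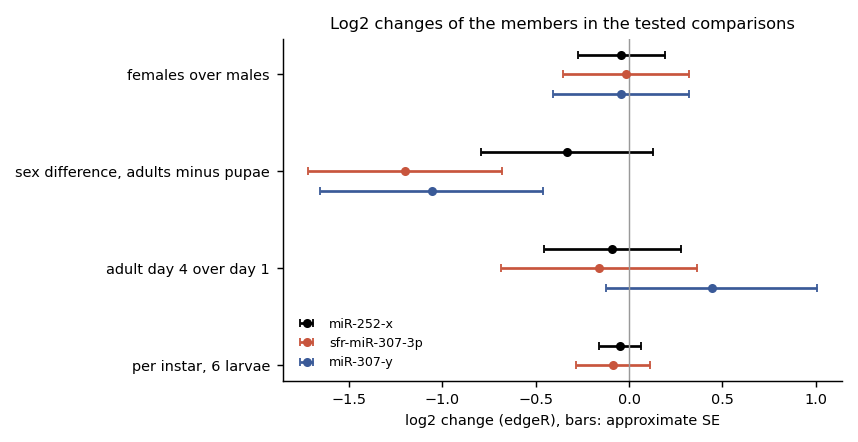
Log2 changes from edgeR with approximate SE for miR-252-x, sfr-miR-307-3p and miR-307-y in the 4 tested comparisons; the larval values are per instar, and miR-307-y was not tested there. No value passed an adjusted p of 0.05, and the furthest from 0 is the sex difference of sfr-miR-307-3p in adults minus pupae (-1.20), which ran from -1.77 to -0.39 without 1 library.

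Other microRNAs tied to ecdysone or moulting were read beside the members in the same tests, from a list of let-7, miR-100, miR-125, miR-34, miR-14, miR-281, miR-8 and miR-275 with 27 rows in the table. In the larval trend 17 were tested, 8 rose and 2 fell with instar, against 10.7% and 18.4% of all 234 rows, and the list's median was 0.30 log2 per instar, against -0.01 over all rows. Forms and arms of the same miRNA count as separate rows here. The list was chosen with earlier results of these data known. The rows that rose included let-7-x, a temporal regulator of metamorphosis in flies, at 1.79 log2 per instar (edgeR adjusted p = 0.0171), and miR-100-x, encoded beside let-7 in flies, at 1.58 (edgeR adjusted p = 0.00639). The others that rose were miR-100-z, let-7-y, miR-275-y, miR-8-x, sfr-miR-281-5p and miR-8-z, between 0.26 and 1.79 log2 per instar. sfr-miR-14-3p and sfr-miR-14-5p, of a miRNA that acts on ecdysone signalling and fat in flies, fell by 0.44 and 0.48. miR-252-x, at -0.05 log2 per instar, was thus not among the rows that rose through larval life. In the other 3 comparisons 23 rows of the list were tested and edgeR called none, with 0 at an unadjusted p under 0.05 for females against males, 6 for the sex difference in adults against that in pupae and 1 for adult day 4 against day 1.

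Profiles over the 18 libraries were compared by Pearson's r of log2(CPM + 1), as a description, with 185 rows of at least 100 CPM on average and the families and near copies of the members left out. All points share their library, its depth and its total. Among the members, miR-252-x and sfr-miR-307-3p had r = 0.928 and Spearman's rho = 0.825, and sfr-miR-307-3p and miR-307-y had r = 0.837 and rho = 0.843. The members were chosen for high pupal levels in these same libraries, so high values between them follow in part from the choice. sfr-miR-307-3p and miR-307-y are also near copies, and the pairs of members were not compared without the egg. The 5 rows most like miR-252-x were a predicted miRNA (cCATCCCTcacatgatgtaact) at r = 0.892, miR-278-y, miR-276-y, miR-10491-y and miR-8-z at r = 0.833. Those most like sfr-miR-307-3p were the same predicted miRNA at r = 0.909, miR-iab-4-1-x and iab-4-x, which are 1 sequence listed with unequal counts, miR-276-y and miR-278-y at r = 0.845. For miR-307-y they were a second predicted miRNA (cATCGACAtcgtcagaaact) at r = 0.859, sfr-miR-10505-3p, the first predicted miRNA, miR-10505-y and let-7-y at r = 0.744. miR-307-z, with its 40 counts, reached at most r = 0.580, with sfr-miR-10505-3p, followed by let-7-y, miR-10491-y, sfr-miR-10465-2-3p and a further predicted miRNA (cCCAGGAAtcaaacatattacac).

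These likenesses turn on the egg, where the members are at or near 0. Without the egg, a setting added after the data had been seen, 0 of the 5 rows most like miR-252-x stayed among its first 5, 1 of 5 for sfr-miR-307-3p and 1 of 5 for miR-307-y. sfr-miR-2765-5p then led for miR-252-x at r = 0.838 over 17 libraries, and miR-10465-y led for both sfr-miR-307-3p and miR-307-y at r = 0.777 and 0.853. By Spearman's rho over all 18 libraries, let-7-y, let-7-x and miR-100-x were the first 3 rows for miR-252-x and for miR-307-y, and miR-100-x, let-7-y and let-7-x for sfr-miR-307-3p.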

How the data were processed

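The authors' deposited table holds raw counts for 18 libraries, with a name and a sequence in each row. Per the labels' protocols, total RNA went into TruSeq small RNA libraries sequenced on a HiSeq instrument. Those protocols give a library number that does not match the 18 samples. How reads were aligned and called is not given in the sources used here. No genome entered the analysis. The labels do not define the name endings -x, -y and -z.

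Among 741 rows, 61 sequences had several entries. Entries identical in sequence and counts were merged, which left 660 rows, and 10 sequences with unequal counts were kept apart. Levels are CPM of the merged library totals, with exact 95% intervals.

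Tests were edgeR 4.0.16 (R 4.3.3) quasi-likelihood tests with robust dispersions and TMM factors, on rows with a mean of at least 10 counts in the fit, adjusted by Benjamini-Hochberg over all rows tested, with a threshold of 0.05. Sexes, adult days and the sex difference in adults against that in pupae were fitted with age and sex terms on the 10 libraries of pupae and adults, and the larval trend on 6 libraries. Each SE is the log2 change divided by the square root of F, and is approximate. The members, lists and tests were chosen with earlier results of these data known. Named rows are the members, rows of their families or seeds, the 5 most like each member, and listed ecdysone rows that passed. Alternatives used DESeq2 1.42.0 and limma 3.58.1, other scalings and filters, other designs and leaving out each library. The test scripts were tested on simulated data. Levels and plots used Python 3.11.15 with scipy 1.17.1, matplotlib 3.10.9, pandas 2.3.3 and numpy 2.4.6.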

Additional observations from a re-analysis of the deposited data

Results flagged for a closer look

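In 20 sets of larvae, pupae or adults examined for a library far from the others, 1 was found, where chance gives about 1 in 20. miR-252-x counts were 12.75 times the summed miR-307 counts in instar 3, against 1.31 to 3.46 in the other 5 larvae, a gap of 0.812 of the whole range. Instar 3 is the shallowest library and the ratio stands on 51 and 4 counts, with an exact 95% interval of 4.69 to 48.6.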

How the results depend on the processing

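No alternative called a member in any tested comparison. The lowest adjusted p was 0.0817, for the sex difference of sfr-miR-307-3p in adults against that in pupae. The stage ratios of the 3 members kept their direction under all scalings and with each library left out. They moved by less than the combined SD of both stages, a wide limit of 0.66 log2 for miR-252-x in pupae over larvae. Leaving out 1 library moves a mean by less than its SD, so that check could hardly fail. TMM factors took this ratio of miR-252-x from 1.78 to 2.26. Without 1 library the log2 ratio of pupae over larvae ran from 1.60 to 1.93 for miR-252-x. It ran from 1.89 to 2.30 for sfr-miR-307-3p and from 2.90 to 3.37 for miR-307-y. Signs turned in 21 member values, none of them called, and held in 159. For the sex difference in adults against that in pupae, miR-252-x had 0.0412 with DESeq2's size factors in edgeR, 0.37 with library totals and 0.0399 with the DESeq2 Wald test. Its female over male log2 change stayed negative in all 18 alternatives, from -0.35 to -0.03. It had an adult day change of 0.0447 with library totals and 0.0021 with the DESeq2 Wald test, and a larval slope of 0.0047 with rows unmerged. Without 1 library the values of miR-252-x ran from -0.80 to 0.39 for the sex difference in adults against that in pupae. Its log2 changes ran from -0.49 to 0.18 for adult days and from -0.26 to 0.10 per instar. Those of sfr-miR-307-3p ran from -0.39 to 0.0992 for females over males, from -1.07 to 0.38 for adult days and from -0.20 to 0.0625 per instar, and those of miR-307-y from -0.33 to 0.11 for females over males.

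Counts over all rows moved more, and the cause was not tested. The sex difference named below is that in adults against that in pupae. For females against males the 2 calls became 16 with no filter, 21 with the DESeq2 Wald test, 4 with limma, 4 with rows unmerged and 5 with no replicate block (stage in place of age), and 1 to 14 without 1 library. For the sex difference the 11 calls became 30 with no filter and 40 with the DESeq2 Wald test, and 0 (without either day 4 pupa or the day 4 female adult, with 34 to 46 rows at an unadjusted p under 0.05) to 58 (without the day 1 female adult). For adult days the 1 call became 13 with the DESeq2 Wald test and 0 in edgeR with DESeq2's size factors, library totals, rows unmerged, miR-307 rows summed or only the 4 adult libraries, with 17 to 35 rows at an unadjusted p under 0.05, and 0 to 9 (without the day 4 male adult) without 1 library. For the larval trend the 68 calls became 105 with the DESeq2 Wald test, 0 for instars 4 to 6 against 1 to 3, and 36 (without instar 1) to 74 (without instar 6). Depth limits miR-307-z and the larval miR-307-y, which rest on 40 and 14 counts.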
